A study of Mus musculus with 2 samples.

Results

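The miR-130 and miR-301 family was measured in the adrenal gland of the mouse, an endocrine organ with a steroid-producing cortex and a catecholamine-producing medulla. Its members are the 4 microRNA genes Mir130a, Mir130b, Mir301 (the gene of miR-301a) and Mir301b, out of 2202 microRNA genes in the count tables. They were chosen by name and not by a rule on their values, but with earlier results of these data known. The series holds 2 microRNA-seq libraries in 1 group, made from total RNA of wild-type C57BL/6J adrenal tissue and labelled as biological replicates 1 and 2. No treatment or altered allele is given for either library. Age and developmental stage are unknown, and the labels disagree on whether sex was recorded (female in 1, not collected in another). Both libraries carry the same donor identifier, and whether separate animals gave the tissue is not stated. All p-values below therefore measure only how these libraries differ beyond counting error, and such differences may be technical.

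A microRNA is cut from a hairpin precursor and guides Argonaute proteins to messenger RNAs, mainly through its seed, bases 2 to 8 from the 5′ end. MicroRNAs with the same seed are grouped as a family because they can pair with largely the same targets. The miR-130 and miR-301 family is known from endothelial and smooth muscle cells, where its members are reported to act on PPARG, the nuclear receptor of lipid metabolism, and it has been studied in vessel growth, vessel stiffening and pulmonary hypertension. It is not a marker of any adrenal cell type.

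The seed that defines the family sits in the arm at the 3′ side of each hairpin. Mature sequences of that arm were taken from RefSeq (GRCm38.p6) for 3 of the 4 members, shown here 5′ to 3′ with the seed in capitals because they show what the members share and where they part. The mature 3p sequence of Mir301b is named only.
miR-130a-3p: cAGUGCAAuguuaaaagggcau
miR-130b-3p: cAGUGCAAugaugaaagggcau
miR-301a-3p: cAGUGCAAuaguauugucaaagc
Counted from the 5′ end, the first 9 bases are the same in all 3. miR-130a-3p and miR-130b-3p are identical at 20 of 22 bases (90.9%) and differ by U11A and A13G, with the base of miR-130a-3p first. miR-301a-3p matches miR-130a-3p at 12 of 22 bases (54.5%) and miR-130b-3p at 11 of 22, and its first difference from miR-130a-3p is G10A, with the base of miR-130a-3p first. miR-130a-3p and miR-130b-3p are thus near-copies, and miR-301a-3p has another 3′ end.

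The hairpins of all 4 members were in the same table. They are printed with the stretch equal to the family seed in capitals, which occurs 1 time in each hairpin, that of Mir301b included.
Mir130a hairpin: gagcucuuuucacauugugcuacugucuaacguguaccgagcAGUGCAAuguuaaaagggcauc
Mir130b hairpin: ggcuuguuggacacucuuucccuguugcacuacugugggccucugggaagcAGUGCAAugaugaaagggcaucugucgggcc
Mir301 hairpin: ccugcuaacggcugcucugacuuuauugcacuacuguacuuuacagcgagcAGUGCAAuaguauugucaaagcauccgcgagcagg
Mir301b hairpin: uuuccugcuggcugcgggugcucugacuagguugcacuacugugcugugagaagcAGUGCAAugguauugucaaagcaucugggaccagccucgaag
The opposite arms carry other seeds, shown in capitals, and here Mir301 and Mir301b share theirs while Mir130a and Mir130b do not.
miR-130a-5p: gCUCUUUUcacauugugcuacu
miR-130b-5p: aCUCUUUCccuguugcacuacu
miR-301a-5p: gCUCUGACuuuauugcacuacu
miR-301b-5p: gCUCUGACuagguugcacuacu
The deposited counts are for a whole hairpin gene, so the 3p and 5p products cannot be told apart in any value below.

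The members lie at 3 places in the genome (mm10, GENCODE M21). Mir130a (ENSMUSG00000065484.1) is on chromosome 2 at 84741115-84741178, minus strand, and overlaps no other annotated gene. The nearest are Gm19426, 990 bases away on the same strand, and Ypel4, 2459 bases away on the opposite strand. Mir301 (ENSMUSG00000065589.1) is on chromosome 11 at 87113004-87113089, plus strand, in an intron of Ska2, which encodes a subunit of the spindle and kinetochore complex that holds chromosomes during division. Mir130b (ENSMUSG00000065572.1) and Mir301b (ENSMUSG00000076288.1) form a cluster on chromosome 16, minus strand, at 17124061-17124142 and 17124400-17124496. Only 257 bases separate them, and each lies in intron sequence of the protein-coding gene 2610318N02Rik on the same strand. Of the 8 annotated transcripts of that gene, 3 span each of them. No other microRNA gene is annotated within 50 kb of any member.

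The tables keep reads that align to several places in a row of their own, 35.9% and 36.0% of all reads, so a gene with a near-identical copy can be under-counted. Compared without gaps with the hairpins of the 1004 other genes in the RefSeq table, none of the 3 mature 3p sequences had an exact match. RefSeq gave hairpins for 968 of the 2202 counted genes, matched by symbol. The rest of the genome was not searched, so other matches may exist. The nearest to miR-130a-3p and miR-130b-3p were each other's hairpins, at 2 mismatches. The nearest to miR-301a-3p was the hairpin of Mir301b, at 1 mismatch. Reads of Mir301 and Mir301b that are cut short or carry an error are therefore the least certain of the family. How many such reads there were was not tested.

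The libraries held 18743064 and 14457994 reads, of which 9137907 (48.8%) and 6570375 (45.4%) fell on a microRNA gene in its own orientation. Levels are given as CPM, same-strand counts of a gene per 1000000 such counts in its library, and the bound of a count of 0 is 0.328 CPM in replicate 1 and 0.457 CPM in replicate 2. No marker list defines adrenal tissue here. Of the lists for other tissues, Mir122 of liver had 128 and 71.5 CPM, the 5 kidney genes summed to 131 and 140 CPM, and the 7 striated muscle genes to 5.14 and 6.39 CPM, with Mir1a-1, Mir1a-2, Mir133a-1 and Mir133a-2 at 0. Those 4 are duplicated loci whose shared reads are set aside, so their zeros and the striated muscle sum do not measure muscle. Mir194-1 and Mir194-2 of the kidney list are duplicated too, which leaves that sum uncertain.

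All 4 members had at least 10 counts in both libraries, but their levels spanned 3 orders of magnitude. Mir130a, the member best known from endothelial cells, had 38325 counts (4194 CPM) in replicate 1 and 20448 counts (3112 CPM) in replicate 2, a mean of 3653 ± 765 CPM (SD, n = 2). It ranked 34 and 43 among all genes in the libraries, so by counts Mir130a is among the higher microRNAs of this tissue in both. Mir130b had 2169 counts (237 CPM) and 1126 counts (171 CPM), with a mean of 204 ± 46.7 CPM. Its ranks of 142 and 162 place it well below its near-copy. In bulk tissue, fewer cells that make a microRNA and less of it per cell cannot be told apart.

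Mir301 and Mir301b were lower. Mir301 had 855 counts (93.6 CPM) in replicate 1 and 251 counts (38.2 CPM) in replicate 2, a mean of 65.9 ± 39.1 CPM, at ranks 185 and 226. Mir301b had 30 and 13 counts (3.28 and 1.98 CPM), a mean of 2.63 ± 0.922 CPM, at ranks 347 and 381. Its level rests on few counts but lies above the bound of a count of 0 in both libraries. The order Mir130a, Mir130b, Mir301, Mir301b was the same in both libraries, and the values of neighbours in that order did not overlap. The lowest value of Mir130b (171 CPM) stood above the highest of Mir301 (93.6 CPM).

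**Figure D1:**
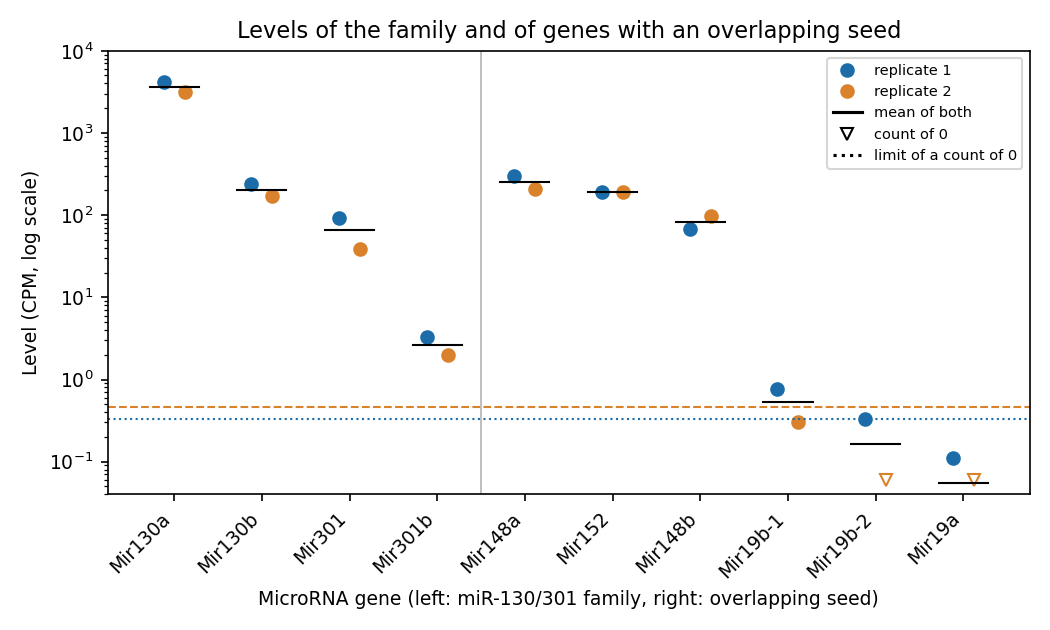
Level in CPM (log scale) of the 4 family members (left) and of 6 genes with an overlapping seed (right) in replicate 1 (blue) and replicate 2 (orange), with the mean of both as a black line. Open triangles mark a count of 0, drawn at an arbitrary low position, and the blue dotted and orange dashed lines are the bounds of a count of 0 in replicates 1 and 2. The family falls stepwise from Mir130a near 3653 CPM to Mir301b near 2.63 CPM.

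Together the members held 41379 counts in replicate 1, or 0.453% of the library (exact 95% interval 0.448 to 0.457), and 21838 counts in replicate 2, or 0.332% (0.328 to 0.337). The family sum was 4528 and 3324 CPM. Intervals cover counting error of reads only. Whether different sequences are recovered equally well was not tested. Shares, order and ratios between members are therefore those of counts, and may differ from those of molecules. The labels state no molecular identifiers, and reads copied by amplification would make the intervals too narrow. Mir130a alone made up 92.6% (exact 95% interval 92.4 to 92.9) and 93.6% (93.3 to 94.0) of the family counts. Mir130b made up 5.24% (5.03 to 5.46) and 5.16% (4.87 to 5.46), shares whose intervals overlap. Mir301 made up 2.07% (1.93 to 2.21) in replicate 1 and 1.15% (1.01 to 1.30) in replicate 2, and these intervals do not overlap. Mir301b made up 0.0725% (0.0489 to 0.103) and 0.0595% (0.0317 to 0.102). These shares do not depend on how the libraries are scaled.

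**Figure D2:**
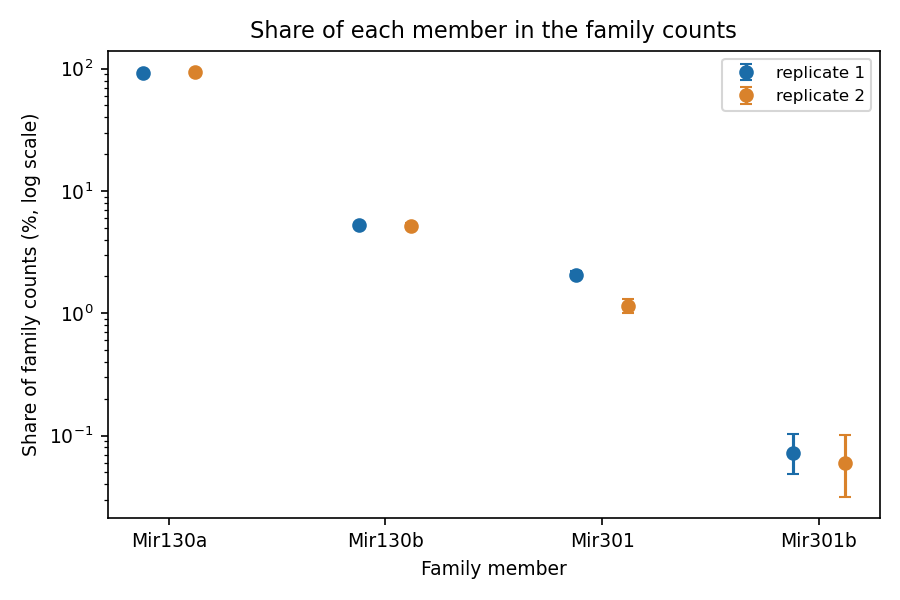
Share of each member in the family counts, in percent on a log scale, in replicate 1 (blue) and replicate 2 (orange), with exact 95% counting intervals as bars. The shares of Mir130b lie side by side at 5.24% and 5.16%, and those of Mir301 stand apart at 2.07% and 1.15%.

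Ratios between members within a library were computed for all 6 pairs. Mir130a had 17.7 times the counts of Mir130b in replicate 1 (exact 95% interval 16.9 to 18.5) and 18.2 times in replicate 2 (17.1 to 19.3). This ratio was nearly the same in both libraries. How often pairs of unrelated genes keep their ratio as closely was not tested, so this is no trait of the family. The cluster partners were far apart in counts. Mir130b had 72.3 times (50.5 to 107) and 86.6 times (50.4 to 163) the counts of Mir301b, 257 bases away in the same host gene and on the same strand.

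Mir301 did not keep its ratio to the miR-130 genes. Mir130a had 44.8 times its counts (41.9 to 48.0) in replicate 1 and 81.5 times (71.9 to 92.6) in replicate 2. Mir130b had 2.54 times its counts (2.34 to 2.75) and 4.49 times (3.91 to 5.16). For both pairs the intervals of the libraries are separate. Mir301 against Mir301b gave 28.5 (19.8 to 42.5) and 19.3 (11.1 to 36.8), and Mir130a against Mir301b gave 1278 (895 to 1894) and 1573 (920 to 2955), with intervals that overlap. The counts of Mir301b are too few to place it with either pattern.

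The comparison of the libraries shows how far the family differs between 2 adrenal samples of the same strain. All 4 members were tested, since each had at least 20 counts over both libraries, and all 4 had the higher CPM in replicate 1. After scaling by TMM, 3 of the 4 passed the test, and all 3 were higher in replicate 1 (exact two-sided binomial test, Benjamini-Hochberg adjusted p under 0.05 over 426 tested genes). Passing was common here: 56.1% of all tested genes did, 30.3% with the higher level in replicate 1 and 25.8% in replicate 2. The median log2 ratio of replicate 2 over replicate 1 was -0.69 over the 4 members and -0.03 over all tested genes. Of the 239 genes that passed, 129 were higher in replicate 1 and 110 in replicate 2. Scaled by total counts, 243 passed, with 93 higher in replicate 1 and 150 in replicate 2. TMM changed every log2 ratio by -0.10 against total counts, and each member had a negative ratio under both scalings.

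Mir301 had the ratio farthest from 0 of the members. Its log2 ratio was -1.39 (95% counting interval -1.60 to -1.19), a 2.63-fold higher level in replicate 1, with an adjusted p of 8.96e-47 in the exact binomial test. By size of the ratio it ranked 26 of 426 tested genes, and 12 tested genes had a lower ratio. Mir130b had a log2 ratio of -0.57 (-0.68 to -0.47), 1.49-fold, with an adjusted p of 2.05e-27 in the same exact test, at rank 123. Mir130a had -0.53 (-0.56 to -0.51), 1.45-fold, at rank 133, and its p was below the smallest number the exact test could represent. In size, both ratios exceeded the median absolute log2 ratio of all tested genes, 0.29. Mir301b had a ratio of -0.80 (-1.90 to 0.15) and did not pass (exact binomial test, adjusted p = 0.140). Its interval holds the ratios of the other 3 members as well as 0.

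**Figure D3:**
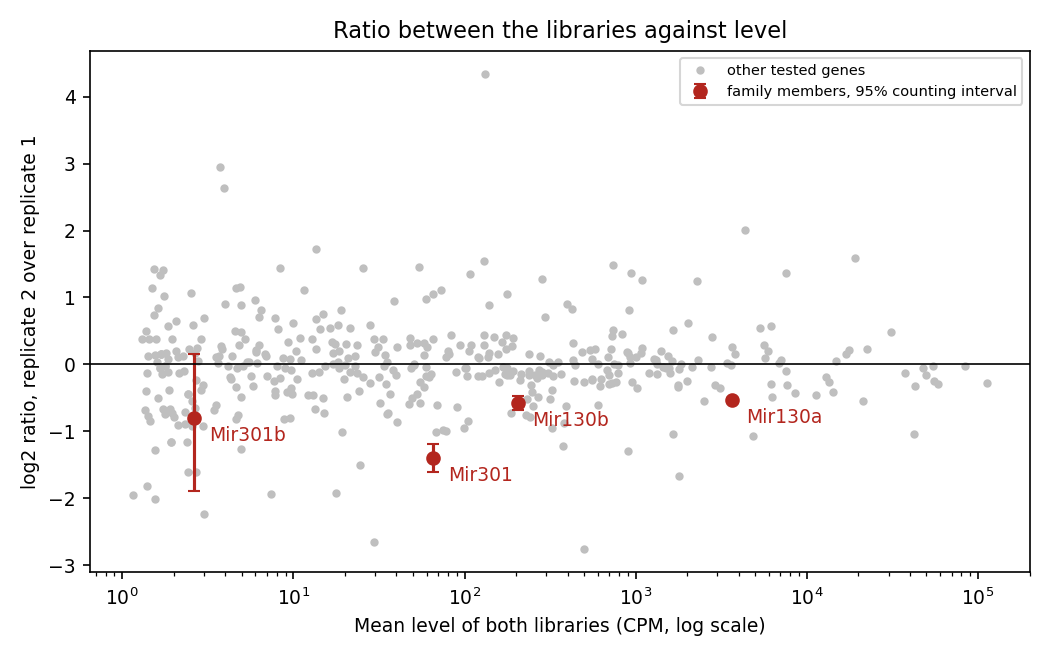
log2 ratio of replicate 2 over replicate 1 after TMM scaling against the mean level in CPM (log scale) for the 426 tested genes, with family members in red and their 95% counting intervals as bars. All 4 members lie below 0, and the interval of Mir301b, at 30 and 13 counts, reaches above it.

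Several cell type lists also differed between the libraries, and their part in the family's difference was not tested. Differing was common, since 56.1% of all tested genes passed. The endothelial list, Mir126a and its opposite-strand partner Mir126b, summed to 61679 CPM in replicate 1 and 54325 CPM in replicate 2, both genes higher in replicate 1. Mir126b had only 17 and 3 counts, the same as the opposite-strand counts of Mir126a, so it is no separate measure of endothelial cells. The 5 fibroblast and smooth muscle genes summed to 18908 and 15027 CPM, with Mir143 and Mir214 higher in replicate 1, Mir145a higher in replicate 2, Mir199a-2 not passing and Mir199a-1 not tested at 2 and 1 counts. The 7 leukocyte genes summed to 3237 and 3559 CPM, with 3 higher in each library and Mir142b at 0. The 3 erythroid genes summed to 144 and 295 CPM, with Mir451a and Mir486 higher in replicate 2. The 4 neuroendocrine genes summed to 54062 and 51805 CPM, with 3 higher in replicate 1. Mir199a-1 and Mir199a-2, like Mir7-1 and Mir7-2 of the neuroendocrine list, are duplicated loci. Reads they share are set aside, which leaves their values uncertain. The tested genes of the endothelial list had log2 ratios of -0.29 (-0.29 to -0.28) for Mir126a and -1.95 (-4.54 to -0.34) for Mir126b. Those of the fibroblast and smooth muscle list were -0.41 (-0.43 to -0.40) for Mir143, -1.04 (-1.08 to -0.998) for Mir214, 0.17 (0.13 to 0.22) for Mir145a and 0.10 (-0.42 to 0.60) for Mir199a-2. The ratios within the fibroblast and smooth muscle list thus lay on both sides of those of Mir130a and Mir130b. Mir301, at -1.39 (-1.60 to -1.19), lay below every tested gene of that list. In the endothelial list only Mir126b, with its few counts, lay below Mir130a, Mir130b and Mir301.

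The seed of the family is also found in 4 other mouse microRNAs among the 1738 mature sequences in the RefSeq table. They are shown because their bases 2 to 8, in capitals, equal those of the family, while their remaining bases differ.
miR-130c: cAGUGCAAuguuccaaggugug
miR-721: cAGUGCAAuuaaaagggggaa
miR-6341: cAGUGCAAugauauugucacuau
miR-6389: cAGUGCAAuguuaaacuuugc
Their genes, Mir130c, Mir721, Mir6341 and Mir6389, had no count in either library, which allows up to 0.328 CPM in replicate 1 and 0.457 CPM in replicate 2 for counting error alone. Every count on the 8 genes found with this seed thus came from the 4 members.

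Other microRNAs hold part of the seed shifted by a base. In the miR-148/152 family, a regulator of DNA methyltransferase and of lipid genes in liver, bases 3 to 8 equal bases 2 to 7 of the miR-130 and miR-301 family. In miR-19, the growth-promoting part of the miR-17-92 cluster, bases 2 to 7 equal bases 3 to 8 of the family. An example of each, with its own seed in capitals, shows the shift.
miR-148a-3p: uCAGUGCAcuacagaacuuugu
miR-19a-3p: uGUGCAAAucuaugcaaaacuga
The counts kept for the 6 genes of these groups summed to 555 and 497 CPM, beside 4528 and 3324 CPM for the miR-130 and miR-301 family. Mir148a had 296 and 206 CPM, Mir152 had 191 and 191 CPM, and Mir148b had 67.7 and 98.6 CPM. By mean level Mir148a thus stood near Mir130b, and Mir148b near Mir301. The order of Mir148b and Mir301 (93.6 and 38.2 CPM) was not the same in both libraries. Mir19a had 1 and 0 counts, Mir19b-1 had 7 and 2, and Mir19b-2 had 3 and 0. Mir19b-1 and Mir19b-2 share a mature sequence, which leaves their level uncertain, since shared reads are set aside. The sum of the 6 genes may therefore be too low.

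These related genes did not all differ between the libraries in the same direction. Of the 3 tested, Mir148a was higher in replicate 1, at -0.62 (-0.72 to -0.53), and Mir148b was higher in replicate 2, at 0.44 (0.28 to 0.60). Mir152 had -0.10 (-0.20 to 0.01) and did not pass. The median of the 3 was -0.10, beside -0.69 for the 4 members and -0.03 for all tested genes.

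In vascular cells the family has been placed upstream of other microRNAs, through PPARG. Of the 3 genes listed for that axis, Mir322 (the mouse counterpart of human miR-424) had 9485 and 7612 CPM and was higher in replicate 1, with a log2 ratio of -0.42 (-0.44 to -0.40). Mir503, its cluster partner, had 123 and 176 CPM and was higher in replicate 2, at 0.41 (0.29 to 0.53). Mir204 had 41.4 and 54.3 CPM and was also higher in replicate 2, at 0.29 (0.08 to 0.50). The median of the 3 was 0.29.

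Among 7 microRNAs known from hypoxia and vessels, 4 were higher in replicate 1, 2 were higher in replicate 2 and 1 did not pass, at a median log2 ratio of -0.14. Mir210, the best-known microRNA induced by low oxygen, had 159 and 224 CPM and a ratio of 0.40 (0.29 to 0.50). Mir222, which acts on cell cycle inhibitors, had 515 and 237 CPM and a ratio of -1.22 (-1.31 to -1.14), while Mir221 had 1352 and 1322 CPM and -0.14 (-0.18 to -0.10). Mir92-1 had 0.24 (0.20 to 0.29), Mir92-2 had 0.16 (-0.0044 to 0.32) without passing, and Mir126a and Mir126b (17 and 3 counts) are given with the endothelial list. Mir92-1 and Mir92-2 share a mature sequence, which leaves their values uncertain.

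The genes with the most similar values to each member were found by the distance of log2(CPM + 1) over the 2 libraries, which reflects level more than pattern. For Mir130a these were Mir7b (3385 and 2834 CPM) and Mir34c (3463 and 3710 CPM). For Mir130b they were Mir223 (227 and 147 CPM) and Mir381 (279 and 178 CPM). Mir301 was nearest to Mir374b (88.5 and 47.2 CPM) and Mir708 (96.4 and 52.5 CPM), and Mir301b to Mir3474 (30 and 12 counts) and Mir1930 (29 and 14 counts). Of these 8 genes, Mir34c was the only one with a higher CPM in replicate 2. Choosing genes by their values in both libraries favours those with the direction of the members, so this is no separate result.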

How the data were processed

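The authors deposited, for each of 2 libraries, raw read counts for 2202 microRNA genes on mm10 with GENCODE M21, as the descriptions deposited with them say. The aligner and the counter were not given in the sources used here. Of 3 unnamed count columns, the stranded column with the larger total was used. The 4 rows that name no gene, 51.2% and 54.6% of reads in that column in replicates 1 and 2, were left out of library sizes.

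Genes with 20 or more counts in all went into an exact two-sided binomial test (SciPy 1.17.1) against TMM-adjusted library sizes (R 4.3.3 with edgeR 4.0.16), with Benjamini-Hochberg adjustment over 426 genes and a threshold of 0.05. Log2 ratios have 0.5 counts added to each library. Intervals are exact (Clopper-Pearson, 95%), and a count of 0 allows 3 counts. On simulated Poisson counts over 426 tested genes, the test called 85.45% of genes changed by a fold of 0.5 and 70.69% at 0.667. It called 60.98% at 1.5, 80.49% at 2, and 0 of 231 unchanged genes. Such counts hold no spread beyond counting error, so these figures do not give the rate of false calls between real libraries. Alternatives were total counts, DESeq2 1.42.0 size factors, counts on either strand, all reads as the denominator, 1 count added, no filter and single libraries. Sequences came from RefSeq (GRCm38.p6). Genes named are the members, all genes of the lists that bear on them, and the 2 genes nearest each member. Members and lists were chosen with earlier results of these data known.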

Additional observations from a re-analysis of the deposited data

Results flagged for a closer look

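Mir130a had 7 opposite-strand counts in replicate 1, above the 3 counts that a count of 0 allows, in a column that the levels do not use. It had 2 such counts in replicate 2, against 38325 and 20448 on its own strand, and no gene is annotated opposite to it. Mir130b, Mir301 and Mir301b had 0 in both libraries.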

How the results depend on the processing

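No paired analysis was possible because the series has 1 group. With all reads as the denominator in place of the counts on genes, mean levels fell to 1730 CPM for Mir130a, 96.8 CPM for Mir130b, 31.5 CPM for Mir301, 1.25 CPM for Mir301b and 1859 CPM for the family, by construction. Single libraries aside, 47 of 51 alternative values kept their direction and side of the threshold, or moved by less than 1 SD (that of Mir301 is wide) or, for counts of genes, 1.5 times. Some of these could hardly change. The added count does not enter the test, and dropping the filter leaves each member's ratio as it is. Members have few opposite-strand counts, so their shares over either strand stay nearly the same. The tally is thus no measure of robustness. Over the alternatives the log2 ratio ran from -0.54 to -0.43 for Mir130a, -0.58 to -0.47 for Mir130b, -1.40 to -1.29 for Mir301 and -0.81 to -0.70 for Mir301b, which passed under none. With 1 library left out, the family level was 3324 or 4528 CPM and that of Mir301 38.2 or 93.6 CPM. Such single values lie at equal distances from the mean by construction, and no test remains. The few counts of Mir301b limit its ratio and shares. Genes passing numbered 217 of 400 (54.2%) with either strand, 235 of 426 (55.2%) with DESeq2 size factors and 233 of 818 (28.5%) with no filter, against 56.1% as reported. The background share for the members thus depends on the filter on low counts.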
